A study of Mus musculus with 8 samples.

Results

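The genes described here move cholesterol into, through and out of the cell or sense it as oxysterol. They are Mylip, Npc1, Stard4, Soat1, Abca1, Abcg1, Nr1h3 and Nr1h2, 8 of the 18745 genes with a named probe on the array, and they were chosen by name from what they are known to do, through the accession of each probe. The choice was made with earlier results of these data known, so shares called among them are a description. They have 13 probes in all, every one of them passed the filter on dim signal, and all 8 genes were among the 14133 tested.

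Cells take up cholesterol in lipoproteins through surface receptors, release it from the late endosome and lysosome, pass it between membranes on carrier proteins, store the excess as ester and export the rest. When sterol in the endoplasmic reticulum is low, SREBP-2 switches on synthesis and uptake genes, Stard4 among them. When sterol is plentiful, oxysterols activate the liver X receptors, LXRs, which switch on export genes and Mylip, whose product sends lipoprotein receptors to be degraded. In the lactating gland the alveolar cells need cholesterol for milk fat globule membranes and for milk itself.

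The arrays measured total RNA of the No. 4 mammary gland from dams on lactation day 1, with 4 wild-type (WT) dams and 4 Th-POK knockout (KO) dams. Th-POK, encoded by Zbtb7b, is a zinc finger transcription factor best known for directing T helper cell fate. All dams were female, of C57/Bl6 background, age matched and fed standard chow, and the knockout line is described without any restriction to the gland or to a cell type. The comparison asks which RNAs differ in the gland that lacks Th-POK as milk secretion starts. The 4 WT arrays were on 1 slide and the 4 KO arrays on another, so genotype and slide cannot be told apart in any value below. In whole gland, fewer cells of a type and less RNA per cell cannot be told apart either.

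Between 67.1% and 75.6% of spots lay well above background on an array, and no spot was saturated. Zbtb7b had log2 signals of 9.90 to 10.42 on the WT arrays and was not well above background on any KO array, which made it at least 81.5-fold lower in KO glands (limma, Benjamini-Hochberg adjusted p = 5.70e-09). The milk protein genes Wap and Csn1s1 were bright on all 8 arrays, with group means of 18.39 and 17.97 in WT glands and 18.47 and 18.01 in KO glands. Over all genes tested, 2331 passed an adjusted p of 0.05, which is 16.5%.

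Stard4 was lower in KO glands, while Npc1, Nr1h3 and Mylip were higher. Those 4 of the 8 genes passed the adjusted p of 0.05 in limma, against 16.5% of all genes tested. The 3 that rose stand beside a background of 7.54% of genes called higher, and the 1 that fell beside 8.96% called lower. Because the 8 genes were chosen with earlier results known, these shares do not test them as a group. Stard4, Npc1 and Nr1h3 had genotype ranges that did not overlap, which held for 24.1% of all genes. Abca1 was higher in KO glands on average but missed the threshold, and Abcg1, Nr1h2 and Soat1 had differences near 0. The median difference over the 8 genes was 0.40 on the log2 scale, beside -0.02 over all genes tested. The calls depended on single arrays, with 0 to 5 of the 8 genes called when 1 array was left out.

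**Figure D1:**
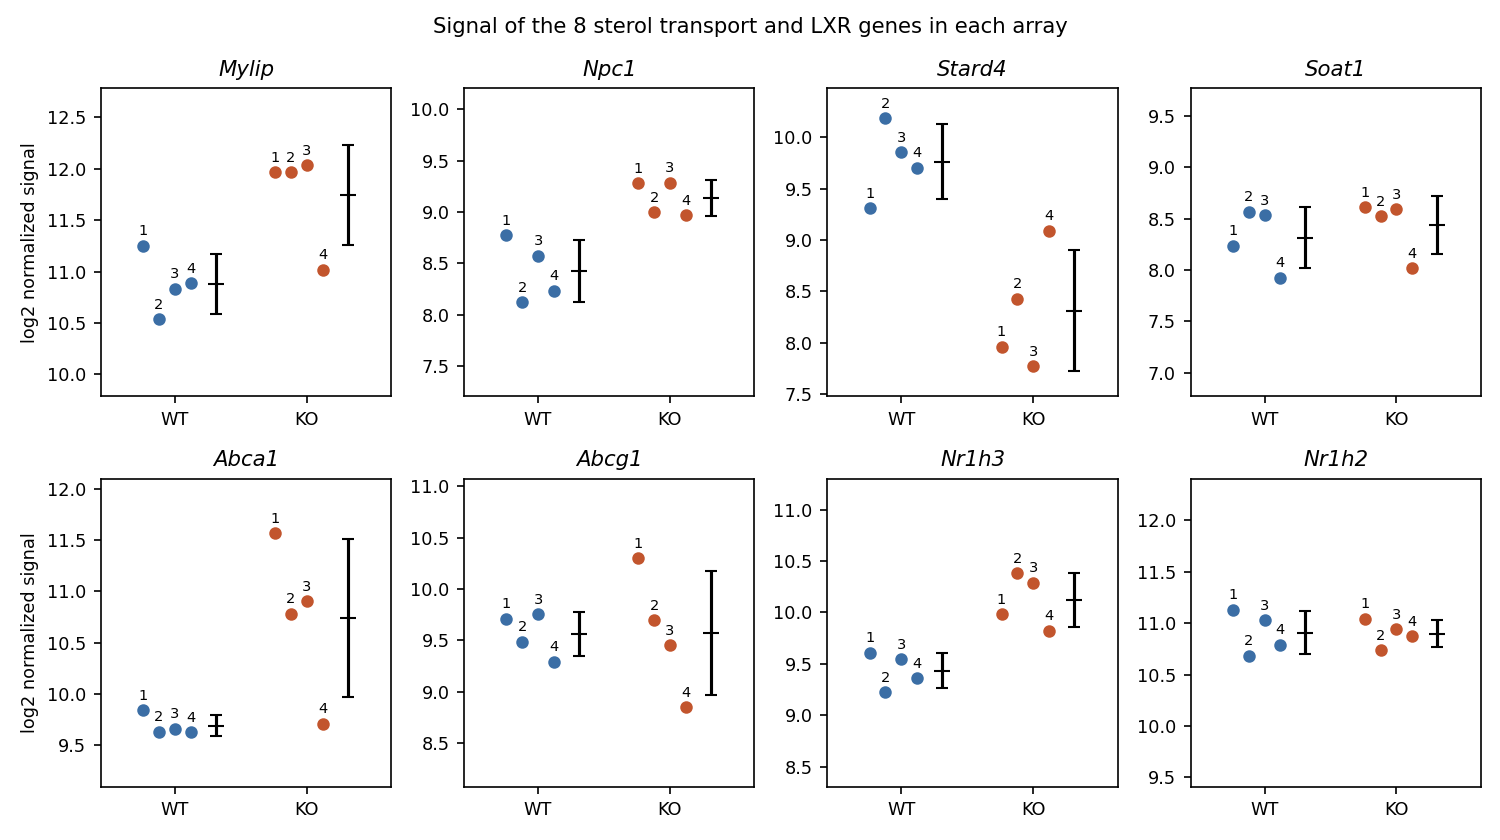
Log2 quantile-normalized signal of each of the 8 genes (vertical axis, 3 log2 units in every panel) in the 4 WT arrays (blue) and the 4 KO arrays (orange), numbered by replicate, with the mean and SD of each genotype as a black bar. Stard4 fell from a mean of 9.76 to 8.31 with no overlap, and KO4 is the KO array nearest the WT arrays in Stard4, Mylip, Abca1 and Nr1h3.

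Uptake at the cell surface was represented by Mylip, an E3 ubiquitin ligase also called IDOL that marks lipoprotein receptors for degradation. Its log2 signal was 11.25, 10.54, 10.83 and 10.89 in WT1 to WT4. In KO1 to KO4 it was 11.96, 11.97, 12.03 and 11.02. The first 3 KO arrays lay above every WT array, and KO4 lay between WT1 and WT4, so the groups overlapped. Mylip was 0.87 ± 0.25 (SE, n = 4 per genotype) higher in KO glands, a fold of 1.83, with an adjusted p of 0.0483 in limma. A second Mylip probe, detected on all 8 arrays, gave 0.89 ± 0.23 (adjusted p = 0.0373 over all probes). Each KO array exceeded the WT array of the same number. The call rested on a p close to the threshold. It was lost when WT2, WT3, WT4, KO1, KO2 or KO3 was left out (adjusted p from 0.0822 to 0.125), and it was held without WT1 or KO4. Without KO4 the difference was 1.11 with an adjusted p of 0.0139.

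Exit from the lysosome was represented by Npc1, the membrane protein that hands cholesterol from the lysosome to the rest of the cell and whose loss causes Niemann-Pick disease type C. Npc1 read 8.77, 8.12, 8.57 and 8.24 in WT1 to WT4 and 9.28, 9.0, 9.29 and 8.97 in KO1 to KO4. The lowest KO array lay above the highest WT array, and the spread within the KO group was the smaller one, with an SD of 0.17 against 0.30. Npc1 rose by 0.71 ± 0.17 on the log2 scale, or 1.63-fold (adjusted p = 0.0277). Its partner Npc2, named here for its role, is the soluble carrier that passes cholesterol to Npc1 inside the lysosome, and it had a difference of -0.30 ± 0.13 and an adjusted p of 0.143. Only 1 probe reports Npc1 on this array. Leaving out WT2, WT3, WT4, KO1, KO2 or KO3 lost the call, with adjusted p values from 0.0533 to 0.0807.

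Transfer between membranes was represented by Stard4, a small soluble carrier of the START domain family that shuttles cholesterol between the plasma membrane, the endocytic recycling compartment and the endoplasmic reticulum. Its log2 signal was 9.31, 10.18, 9.85 and 9.70 in WT1 to WT4. In KO1 to KO4 it was 7.96, 8.43, 7.77 and 9.09. All 4 KO arrays lay below all 4 WT arrays, with KO4 the nearest to them. Stard4 fell by 1.45 ± 0.30, a 2.73-fold lower signal in KO glands (adjusted p = 0.0204), and it had the largest absolute difference of the 8 genes, at the 97.3 percentile of all genes tested.

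Stard4 has 3 probes, and all of them were lower in KO glands. The second read 6.52, 7.45, 6.84 and 7.31 in WT glands and 4.28, 5.27, 4.56 and 6.41 in KO glands, a difference of -1.90 ± 0.44 (adjusted p = 0.0274 over all probes). The third was well above background on 4 WT arrays but only 2 KO arrays and gave -2.05 ± 0.47 (adjusted p = 0.0266). On each of the 3 probes KO4 was the highest KO array. Without KO4 the difference of the brightest probe was -1.71, and without WT2, WT3, KO1 or KO3 its adjusted p was 0.0520 to 0.0577.

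**Figure D2:**
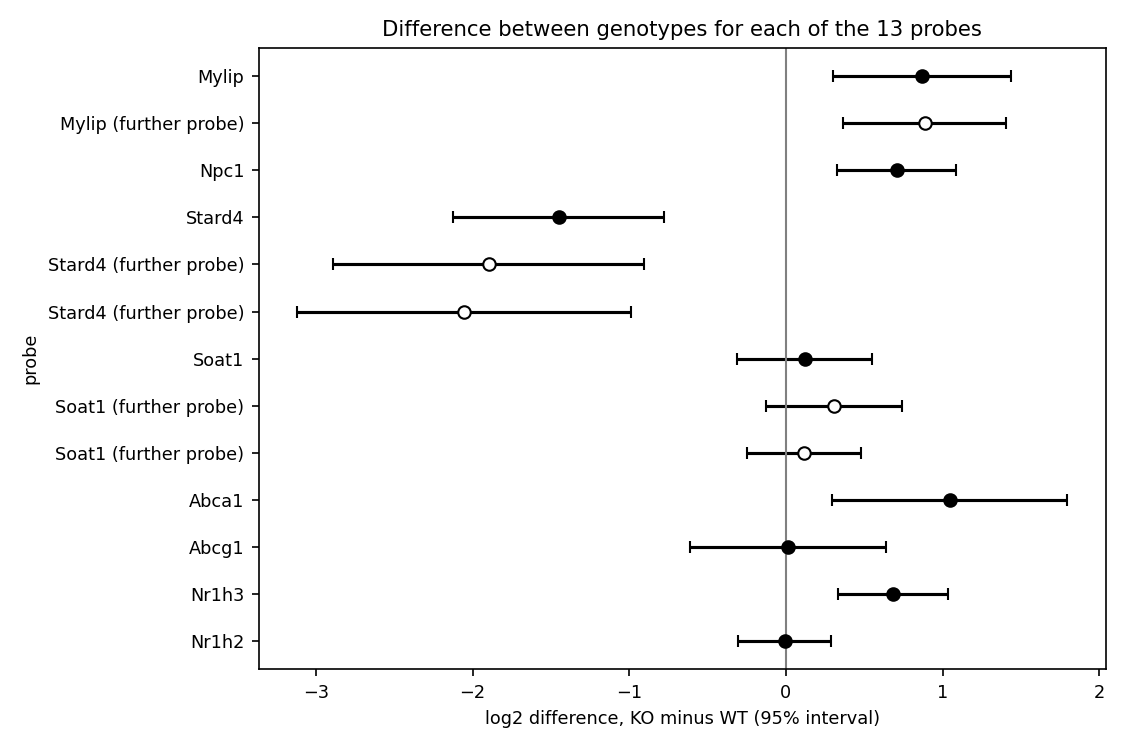
Log2 difference between KO and WT glands (horizontal axis) for each of the 13 probes, with the 95% interval of limma's fit over all probes; filled circles are the brightest probe of a gene and open circles its further probes. All 3 Stard4 probes lie below 0, both Mylip probes lie above 0, and the intervals of the 3 Soat1 probes span 0.

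Storage was represented by Soat1, the acyl-CoA cholesterol acyltransferase of most tissues that esterifies cholesterol for lipid droplets. Soat1 read 8.23, 8.57, 8.53 and 7.93 in WT glands and 8.61, 8.52, 8.59 and 8.02 in KO glands. In each genotype array 4 was the lowest, and the groups overlapped almost fully. The difference was 0.12 ± 0.19 with an adjusted p of 0.678 and a 95% interval from -0.31 to 0.55. The further 2 probes gave 0.31 (adjusted p = 0.278) and 0.11 (adjusted p = 0.645).

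Export was represented by Abca1, which loads cholesterol and phospholipid onto lipid-poor apolipoprotein A-I, and Abcg1, which passes cholesterol to mature HDL. Abca1 read 9.84, 9.63, 9.66 and 9.63 in WT glands, a narrow range with an SD of 0.10. In KO1 to KO4 it read 11.56, 10.78, 10.90 and 9.71, with an SD of 0.77. The first 3 KO arrays stood well above every WT array, while KO4 lay below WT1, and each KO array exceeded the WT array of its number. The mean difference was 1.05 ± 0.33, or 2.07-fold, with a 95% interval from 0.28 to 1.81 and an adjusted p of 0.0621, so Abca1 was not called. Blocking on the replicate number gave the same difference an adjusted p of 0.0459, and without KO4 it was 1.39 with an adjusted p of 0.0115, so the call turned on the treatment of 1 array and of the pairing.

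Abcg1 read 9.71, 9.48, 9.75 and 9.29 in WT glands and 10.30, 9.69, 9.45 and 8.85 in KO glands. The highest and the lowest array of all 8 were both KO arrays. The difference was 0.01 ± 0.28 with an adjusted p of 0.979, and the 95% interval ran from -0.62 to 0.65, which leaves room for a change of either sign. Within the KO group, KO1 was highest and KO4 lowest for both transporters.

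The oxysterol receptors were represented by Nr1h3, or LXR alpha, and Nr1h2, or LXR beta, which bind DNA as partners of the retinoid X receptor. LXR alpha is found mostly in liver, fat, gut and macrophages, and LXR beta in nearly all cells. Nr1h3 read 9.61, 9.23, 9.54 and 9.36 in WT glands and 9.98, 10.38, 10.29 and 9.82 in KO glands, and the lowest KO array was above the highest WT array. Nr1h3 rose by 0.68 ± 0.15, or 1.61-fold (adjusted p = 0.0251). This call was lost without WT2, WT3, KO1, KO2 or KO3, with adjusted p values of 0.0517 to 0.0746. It was the only one of the 8 genes that also passed the threshold in the methods' t-test after Benjamini-Hochberg adjustment (adjusted p = 0.0496).

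Nr1h2 read 11.13, 10.69, 11.03 and 10.79 in WT glands and 11.05, 10.74, 10.94 and 10.88 in KO glands, with the KO values inside the WT range. The difference was -0.01 ± 0.13 with an adjusted p of 0.970. Its 95% interval, from -0.30 to 0.29, was the narrowest of the 8 genes.

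Stard4 was set against each of the other 7 genes within arrays, to ask whether it differed between genotypes by another amount than they did. For each array the log2 signal of the other gene was taken from that of Stard4. The difference between KO and WT in this log ratio was -2.50 for Abca1, -2.32 for Mylip, -2.16 for Npc1 and -2.13 for Nr1h3. It was -1.57 for Soat1, -1.46 for Abcg1 and -1.44 for Nr1h2, and in each of the 7 the KO array was lower in 4 of 4 pairs of the same number. For Abca1, Npc1, Nr1h3 and Soat1 the genotype ranges of the log ratio did not overlap, so any numbering gives 4 of 4. Abca1, Npc1, Nr1h3 and Soat1 reached an exact two-sided permutation p of 0.0286, the smallest that 70 relabelings of the arrays allow, and 0.05 after Benjamini-Hochberg adjustment over the 7, which is not under the threshold. Mylip and Nr1h2 had an exact permutation p of 0.0571 (adjusted 0.0667) and Abcg1 one of 0.0857 (adjusted 0.0857). Without KO4 all 7 log ratios were fully separated between genotypes, with an adjusted exact p of 0.0286, the smallest that this split allows. In the other 9 settings tried, which include leaving out any other array, no log ratio passed the threshold.

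KO4 accounted for much of the spread within the KO group. It had the highest Stard4 signal of the KO arrays and the lowest signal of Abca1, Abcg1, Mylip, Npc1, Nr1h3 and Soat1. KO1 and KO3 had the lowest Stard4 signals. With KO4 left out, limma called 5 of the 8 genes, Abca1 in addition to the 4. Leaving out WT2, WT3, KO1 or KO3 left 0 of the 8 called, while 5 of the 8 still had an unadjusted p under 0.05. The count over all genes in those settings was 515 to 983, against 2331 with all 8 arrays. Without KO2 the only call was Stard4, without WT4 the calls were Stard4 and Nr1h3, and without WT1 all 4 stayed. No difference of a called gene changed sign in any setting.

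**Figure D3:**
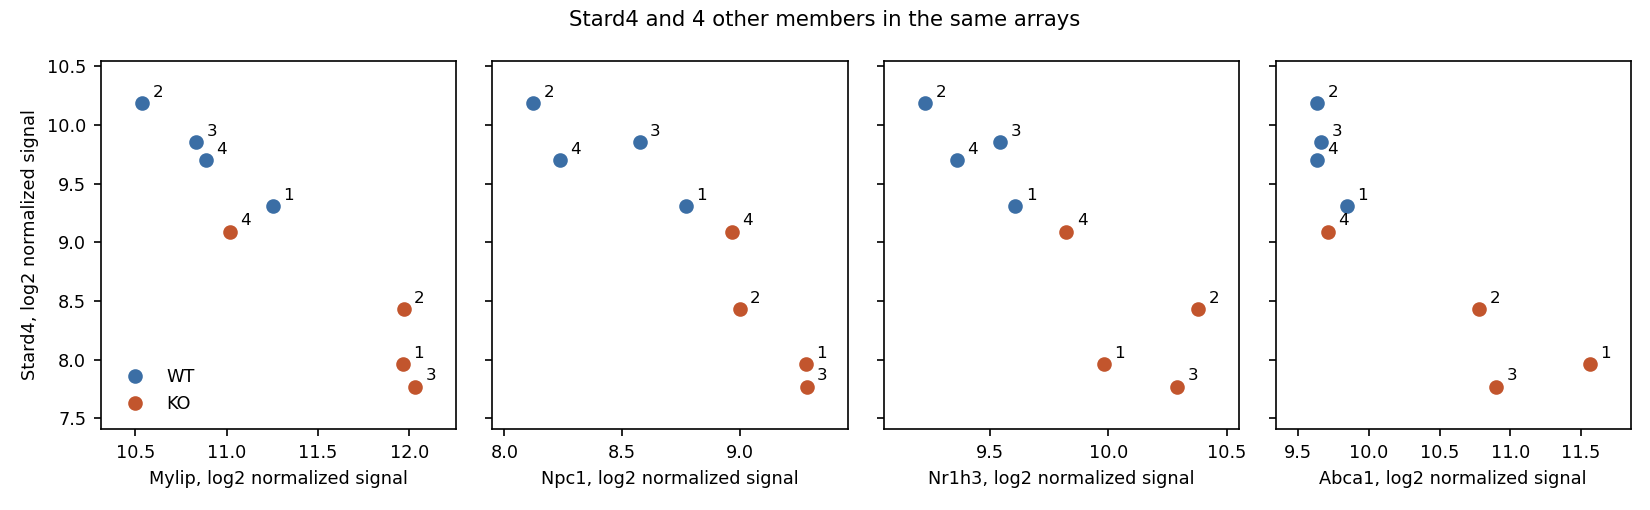
Log2 normalized signal of Stard4 (vertical axis) against Mylip, Npc1, Nr1h3 and Abca1 (horizontal axes) in the same arrays, WT in blue and KO in orange, numbered by replicate. In every panel KO1, KO2 and KO3 sit at the lower right, and KO4, at 9.09 for Stard4, sits nearest the WT arrays.

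The genes whose signal ran most like that of each called gene over the 8 arrays were found by Pearson's r, as a description of these arrays in which the genotype difference and the slide take part. For Stard4 these were Lrrc8e (r = 0.994), Msmo1 (0.993) and Ikzf4 (0.989), of which Msmo1 encodes a sterol methyl oxidase of cholesterol synthesis. For Npc1 they were Tprgl (0.994), Zfp444 (0.994) and Sap30l (0.993). For Nr1h3 they were Fam3b (0.988), Caprin2 (0.983) and Fam131a (0.981), and for Mylip they were Stamos (0.985), Atp11a (0.985) and Treml1 (0.984).

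The other genes of the pathway were read from 8 lists of known function. Their 89 genes beyond the 8 gave 79 that were tested, of which 18 were called, 5 of them higher in KO glands, a share of 22.8% beside 16.5% of all genes tested. With the replicate number as a block 28 were called, or 35.4% beside 19.5% of all genes. The lists too were chosen with earlier results of these data known, so these shares are not a test. In lipoprotein uptake, 10 genes were tested, 2 fell and 1 rose, and the median difference was 0.01. Lrp8, a receptor that binds reelin and ApoE, read 8.01, 8.44, 7.72 and 7.49 in WT glands and 6.35, 6.90, 6.18 and 6.51 in KO glands. All KO arrays lay below all WT arrays, and Lrp8 fell by 1.43 (adjusted p = 0.0113), a call that was held with any array left out. Apobr, a receptor for ApoB48 lipoproteins, rose by 1.11 (adjusted p = 0.0210), and the call was lost without WT2, WT3, KO1, KO2 or KO3 (adjusted p from 0.0512 to 0.0595). Vldlr, a receptor for triglyceride-rich lipoproteins, fell by 0.52 (adjusted p = 0.0423). Its call was held without KO4 and lost without any other single array (adjusted p from 0.0575 to 0.112). Lrp2, the large endocytic receptor megalin, passed the background threshold on all 4 WT arrays but on 0 of 4 KO arrays, and its direction differed between settings, so no difference is given for it.

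The list for lysosomal exit and sterol transfer holds Npc1 and Stard4. Of its 20 genes tested, 3 rose and 4 fell. Besides Npc1 and Stard4, Gramd1c, of the family that carries plasma membrane cholesterol to the endoplasmic reticulum, fell by 1.07 (adjusted p = 0.00669). Stard5, a START domain relative of Stard4, fell by 0.84 (adjusted p = 0.0214), and Osbpl9, of the oxysterol-binding protein family, rose by 0.69 (adjusted p = 0.0165). Stard3, another START domain relative, rose by 0.95 with overlapping groups (adjusted p = 0.0294), and Osbp fell by 0.52 (adjusted p = 0.0251). Both are named as the remaining calls of the list, and they were not followed across the other settings. Stard5 missed the threshold without WT2, WT3, KO1 or KO3 (adjusted p from 0.0540 to 0.0627) and Osbpl9 without KO3 (adjusted p = 0.0526), while Gramd1c kept its call with any array left out. In esterification and ester hydrolysis, 7 genes were tested and limma called 0 of them, with 4 at an unadjusted p under 0.05, and the methods' t-test also called 0 after adjustment. Scaling to the 75th percentile called 2 lower, Lcat and Cel (adjusted p = 0.0276 and 0.0425), the deposited log2 table called 1 lower, the replicate block 1 lower, and the fit without KO4 1 higher. The smallest p values there belonged to Lcat (-0.73, adjusted p = 0.0533), which was well above background on only 1 KO array and gave -0.08 with normexp correction, and to Cel (-0.82, adjusted p = 0.0671), Lipe (0.59, adjusted p = 0.0707) and Ces1d (0.79, adjusted p = 0.0981).

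In sterol efflux, 9 genes were tested and the 1 called was Apoe, the apolipoprotein that accepts exported cholesterol. Apoe was 0.63 ± 0.14 higher in KO glands (adjusted p = 0.0248), with the 4 KO arrays above the 4 WT arrays, and under scaling to the 75th percentile it was 0.46 higher with an adjusted p of 0.0511. Without WT2, WT3, KO1 or KO3 its adjusted p was 0.0543 to 0.0654. After Abca1 the next by p were Arl4c (0.49, adjusted p = 0.0934) and Abcg4 (-0.73, adjusted p = 0.135). Among 14 LXR partners and coregulators, 2 were called, both higher, Nr1h3 itself and Prmt2, an arginine methyltransferase, at 0.88 ± 0.14 (adjusted p = 0.0116). Ncoa6, a coactivator of nuclear receptors, gave 0.22 (adjusted p = 0.122) but -0.09 in the deposited log2 table, and Lcor gave 0.23 (adjusted p = 0.174). Of 6 oxysterol enzymes tested, Cyp46a1, the cholesterol 24-hydroxylase, fell by 1.00 (adjusted p = 0.0159), and Ch25h, Cyp39a1 and Cyp7b1 gave -0.50, 1.21 and 0.36 with adjusted p values of 0.197, 0.103 and 0.374. Cyp39a1 gave 0.78 without WT2 and 1.57 without WT4 (adjusted p = 0.194 and 0.0496), and Cyp7b1 gave from 0.16 without KO1 to 0.55 without WT2.

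Genes known as LXR targets went both ways. Of 19 tested, 3 rose, Mylip, Nr1h3 and Apoe, and 1 fell, and the median difference was 0.16 beside -0.02 over all genes. Over all genes tested, 7.54% were called higher and 8.96% lower. Mylip and Nr1h3 are also among the 8 genes described here. The gene that fell was Srebf1, which encodes SREBP-1, at -1.31 ± 0.19 (adjusted p = 0.00879). Srebf1 read 15.40, 16.31, 15.85 and 15.62 in WT glands and 14.47, 14.67, 14.32 and 14.47 in KO glands, with no overlap. With the replicate number as a block, 5 of these targets were called higher and 4 lower, beside 19.5% of all genes called in either direction.

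Genes that SREBP-2 drives when sterol is low went mostly one way. Of 14 tested, 7 fell and 1 rose, beside 8.96% of all genes called lower and 7.54% called higher, and the median difference was -1.46. Stard4 was among the 7, at a size close to the median. Mvd, Insig1 and Sqle, which serve mevalonate decarboxylation, SREBP retention and squalene epoxidation, differed by -1.74, -2.30 and -1.85 (adjusted p = 0.00873, 0.0180 and 0.0182), and all 3 fell. The 1 that rose was Npc1. Insig1 and Sqle lost the call without KO3 (adjusted p = 0.0506 and 0.0566), Insig1 also without KO1 (0.0516) and Sqle without WT2 (0.0504), and Mvd kept it with any array left out. Without KO4, 12 of the 14 were called lower, and with the replicate block 11, while the methods' t-test called 3 lower and 0 higher after adjustment, with 9 of the 14 at an unadjusted p under 0.05.

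**Figure D4:**
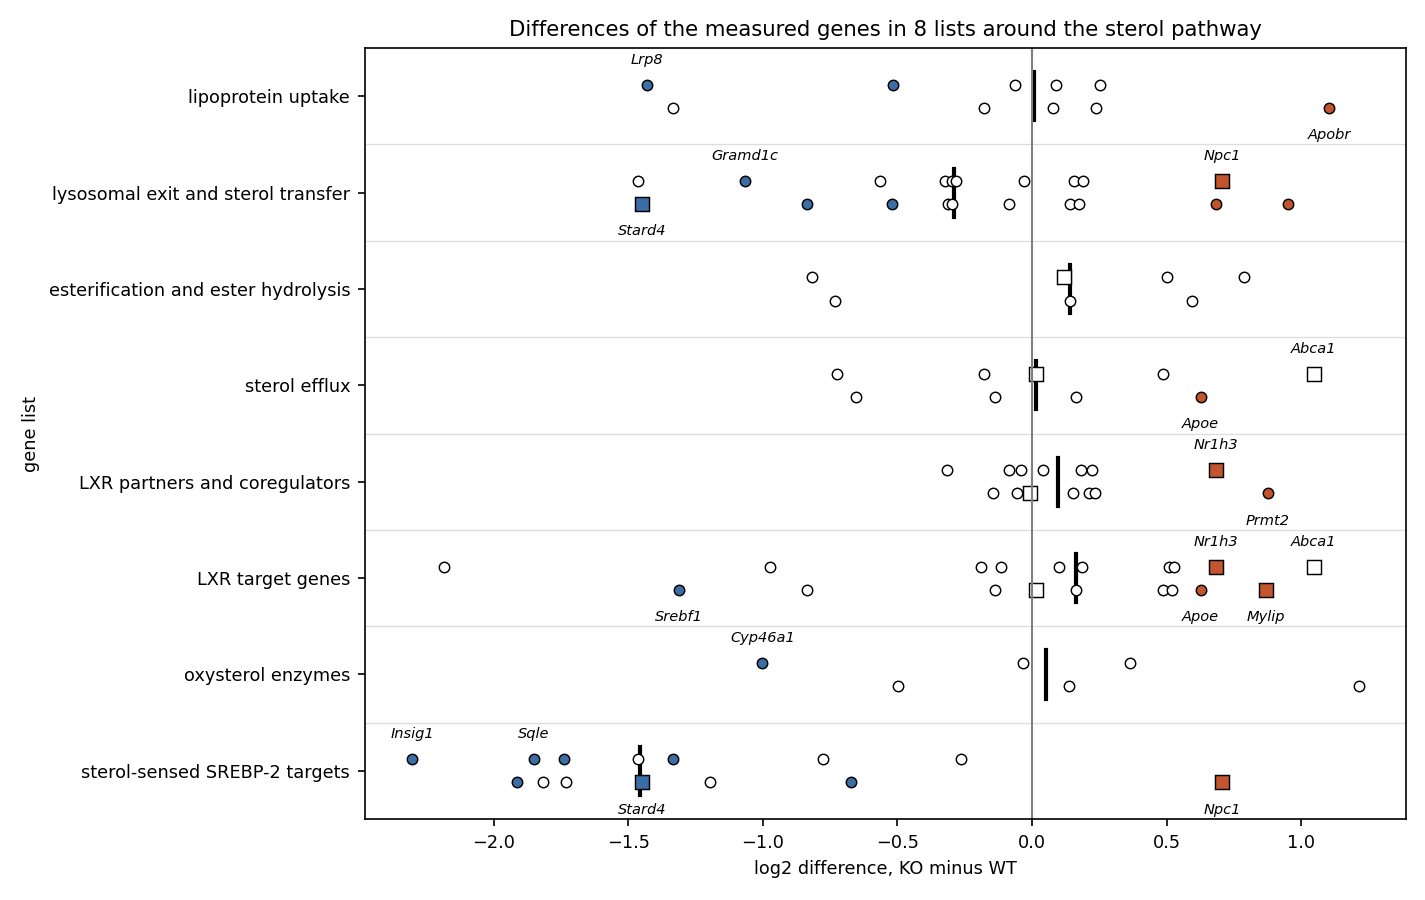
Log2 difference between KO and WT glands (horizontal axis) of every tested gene in 8 lists (rows); squares are the 8 genes described here and circles the others, filled where limma's adjusted p was under 0.05 (orange higher in KO, blue lower) and open otherwise, with the list median as a vertical bar. Most SREBP-2 targets lie below 0 with Npc1 at 0.71 on the other side, while LXR targets lie on both sides, from Mylip at 0.87 to Srebf1 at -1.31.

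Promoter sequence was searched for the sites that these sensors are known to bind, in windows from 250 bases before to 50 after each start, taken from RefSeq on GRCm38.p6. Windows were given for 5 of the 8 genes, as 6 promoters, with none for Stard4, Abcg1 or Npc1. The sterol regulatory core TCACNCCAC, read on both strands, was in 1.24% of all 32851 promoters and in 0 of those 6, and among 12 promoters of the SREBP-2 list only that of Hmgcs1 held it. The LXR direct repeat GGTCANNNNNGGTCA was in 0.0761% of all promoters and in 0 of the 6. With the fourth base left free, as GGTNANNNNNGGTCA, which also takes in every match of the stricter repeat, it was in 0.207% of all promoters and in 3 of 26 promoters of the LXR target list. Those 3 belong to Abca1, Srebf1 and Fasn, the last of which, the fatty acid synthase gene, is named because it holds the match. They are shown to set the matched letters beside how the genes read in these glands. The free base was not named in the planned search, and the stricter repeat was in 0 promoters of the LXR target list. The count for the looser form beside its share of all promoters is therefore not a test. Each window is written in the direction of the gene, which is the minus strand in all 3, and capitals mark the repeat, which lies on the strand opposite to the gene:
Abca1, chr4:53159940-53159969: cagcgttTGACCGGTAGTAACCccggcgct
Srebf1, chr11:60210631-60210660: acgacagTGACCGCCAGTAACCccagcgcg
Fasn, chr11:120824750-120824779: gccacgaTGACCGGTAGTAACCccgcctga
The Abca1 repeat lies 67 to 53 bases before the start of the gene, and its 15 letters are the same as those of Fasn. The genes with this repeat read differently in KO glands. Abca1 was 1.05 higher and not called, Srebf1 fell by 1.31, and Fasn gave -0.97 (adjusted p = 0.128). A match says only that these letters are in the window, and binding was not measured.

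Markers of the cell types in the gland were read beside these genes. Macrophages express Abca1, Abcg1 and Nr1h3 strongly, and LXR alpha is also found in fat, so the macrophage and adipocyte lists are given first. Of 11 macrophage markers tested, 0 rose and 1 fell in limma without the block, Marco, named because it was the only call there. With the replicate block 1 was called higher and 1 lower. Called or not, 7 were higher and 4 lower in KO glands, with a median difference of 0.23. Without KO4 the median was 0.38. In that limma fit 0 were called higher and 1 lower, with 4 at an unadjusted p under 0.05. Their mean log2 signal ran from 9.04 to 9.58 in WT glands and from 9.0 to 9.77 in KO glands. The list was lowest in WT4 and KO4, the arrays that were also lowest for Abcg1 in each genotype. Its brightest genes, Cd14 and Csf1r, differed by 1.39 (adjusted p = 0.203) and 0.03 (adjusted p = 0.896). On each of the 8 arrays all 11 were detected well above background. Of 8 adipocyte markers 2 rose, with list means of 13.25 to 13.96 in WT glands and 13.84 to 14.09 in KO glands, and its brightest, Cfd and Fabp4, differed by 0.68 (adjusted p = 0.0268) and 0.29 (adjusted p = 0.154). Called or not, 7 adipocyte markers were higher and 1 lower in KO glands. The median difference of the adipocyte list was 0.41, and 0.52 without KO4. In limma without KO4, 1 adipocyte marker was called higher, with 6 at an unadjusted p under 0.05.

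Of 8 neutrophil markers 3 were called higher, Camp, Ngp and Ltf, and 5 were not called. The list mean was 8.22 to 8.72 in WT glands and 9.85 to 10.79 in KO glands. Its brightest genes were Ltf, which is also a milk protein and rose by 1.31 (adjusted p = 0.00660), and Lcn2, at 0.22 (adjusted p = 0.467). Also not called were S100a9 (2.19, adjusted p = 0.0566), S100a8 (0.49, adjusted p = 0.357), Mpo (0.24, adjusted p = 0.524) and Csf3r (0.08, adjusted p = 0.861). Camp and Ngp, named here because they were called, were well above background on 0 WT arrays and 4 KO arrays. They passed the filter only through the KO group. Their calls and the gap in the list mean therefore rest partly on WT signals near the floor. Of 6 fibroblast markers 1 rose, with none called under scaling to the 75th percentile and 2 with the replicate block, and with list means of 13.86 to 14.11 and 14.14 to 14.74. Its brightest were Col1a2, at 0.40 (adjusted p = 0.130), and Dcn, at 0.50 (adjusted p = 0.0257 in limma on quantile-normalized values). Called or not, all 6 fibroblast markers were higher in KO glands. The luminal and milk list had 2 of 9 higher, with list means of 16.06 to 16.16 and 16.14 to 16.27. The T and B cell list had 2 of 8 lower, and the basal and endothelial lists had 0 of 7 and 0 of 6 called in limma and in the methods' t-test, with 1 gene each at an unadjusted p under 0.05. Under 75th percentile scaling the luminal and milk list had 1 higher and 1 lower, as with the replicate block, the adipocyte list had 1 higher and the T and B cell list 3 lower. The block left 1 T and B cell marker lower, and without KO4 1 endothelial marker was lower. The methods' t-test called 0 in the luminal, adipocyte, macrophage and T and B cell lists after adjustment, with 5, 2, 1 and 3 at an unadjusted p under 0.05. The part of any cell type in the differences of the 8 genes was not tested.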

How the data were processed

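Total RNA from 4 WT and 4 KO glands was hybridised in one colour (Cy3) to Agilent 4x44K mouse arrays, and the authors' scanner files, read with Agilent Feature Extraction 10.7 per the submitters' processing notes, hold deposited intensity values (gProcessedSignal, background corrected, linear scale). The authors also deposited a quantile-normalized log2 table of the same arrays, used here as an alternative. Intensities of the 43379 non-control spots were taken to log2 and quantile normalized. The spots of a probe not marked as outliers were then averaged, which gave 41174 probes. Probe accessions were matched to RefSeq symbols (27471 probes, 18745 symbols). A probe was kept if well above background on all 4 arrays of either genotype. Dropped were 67 matched probes that had every spot marked as an outlier on some array. The brightest probe stood for its gene. Genotypes were compared with limma 3.58.1 in R 4.3.3, with Benjamini-Hochberg adjustment over 14133 genes. Adjusted p values of single probes are over all probes that passed the filter and had a value on every array, matched or not. Of those probes, 20830 were matched to a symbol. Array data carry no read depth, and the number of arrays limits the precision.

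Same-numbered WT and KO arrays deviated together from their group means (r = 0.219, 0.165, 0.304 and 0.283, mean 0.243). Different numbers averaged -0.0788 but ranged from -0.323 to 0.341, and WT1 with KO3, WT3 with KO1 and WT2 with KO4 (r = 0.341, 0.264 and 0.240) were as alike as same numbers. Because deviations are taken from group means, a positive average for same numbers largely forces a negative one for different numbers. The numbers were taken as pairs because every same-number r was above 0.1, from the data and not from a stated litter or day, and they do not single out each pair. Alternatives were scaling to the 75th percentile, normexp background correction, the deposited log2 table, other filters and probe rules, the replicate block, the methods' t-test, trend and robust moderation, array weights and each array left out. The fit was tested on simulated data with known changes. The 8 genes and the gene lists, which share genes, were chosen with earlier results of these data known. Named were all 8 genes, up to 4 genes of smallest p per list, the 2 brightest markers of a list and the 3 genes most like each called gene. A comparison of protein sequences was not run. Results for 2 genes of the pathway lists are not reported here.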

Additional observations from a re-analysis of the deposited data

Results flagged for a closer look

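In 4 of 80 groups of 4 arrays, 1 array stood apart from the other 3 by Dixon's criterion, which chance alone does in about 1 of 20 groups. Mylip read 11.02 in KO4, against 11.96 to 12.03 in the other KO arrays. Soat1 read 8.02 in KO4, against 8.52 to 8.61 in the others. Abcg4, a relative of Abcg1 in the efflux list, read 5.32 in KO4, against 6.16 to 6.22. Abca1 read 9.84 in WT1, against 9.63 to 9.66 in the other WT arrays. In 3 of the 4 cases the array was KO4, and the cause was not tested.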

How the results depend on the processing

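Limma called 4 of the 8 genes, 2331 of all genes and 18 of the other pathway genes. The methods' t-test gave 1, 1388 and 12, with adjusted p values of 0.0532 for Stard4 (-1.45), 0.0554 for Npc1 (0.71) and 0.0973 for Mylip (0.87). Array weights called 3838 genes over all and brought Abca1 past the threshold (1.19, adjusted p = 0.0181), as did the replicate block (1.05, adjusted p = 0.0459), which changed no other call among the 8 and called 28 of the other pathway genes. Mylip was lost with no filter on dim probes (0.87, adjusted p = 0.0721) and with normexp correction (0.81, adjusted p = 0.0512), run on median signals as chosen after seeing the data. With each array left out in turn, 0 to 5 of the 8 genes, 515 to 3073 of all genes and 6 to 25 of the other pathway genes were called. The differences ranged from -1.71 to -1.27 for Stard4, 0.76 to 1.11 for Mylip, 0.60 to 0.78 for Nr1h3, 0.61 to 0.82 for Npc1 and 0.77 to 1.39 for Abca1. The log ratios of Stard4 ranged from -3.10 to -2.10 for Abca1, -1.96 to -1.10 for Abcg1, -2.82 to -2.04 for Mylip, -1.71 to -1.23 for Nr1h2, -2.49 to -1.90 for Nr1h3, -2.47 to -1.92 for Npc1 and -1.97 to -1.34 for Soat1, and paired by replicate number each had an exact p of 0.125, the smallest that 4 pairs allow. Scaling to the 75th percentile kept the 4 calls, and no called difference changed sign. The cause of single lost calls was not tested.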
